A study of Mus musculus with 7 samples.

Results

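The collagen genes are the 44 entries, of 24421 gene symbols counted, whose symbol is Col followed by a chain type number, the letter a and a chain number. They were measured by RNA sequencing of whole cerebellum from C57BL/6 mice. The 4 libraries titled CicKO carry En1-Cre with both Cic alleles floxed, and the 3 titled Wildtype carry a single floxed Cic allele beside an intact one, and no Cre is listed for them. A floxed Cic allele is therefore present in both groups, effects of Cre and of losing Cic cannot be told apart, and only cells of the En1 lineage, which arises in the embryonic midbrain and anterior hindbrain, can lose the gene. Age, sex and litter are not among the labels, nor is it stated that each library is a separate animal, so p-values measure the spread between these libraries, which may be partly technical.

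Collagens are secreted or membrane-anchored proteins built from chains that wind into a triple helix. Fibrillar chains form rope-like fibres in connective tissue, type IV chains form the sheet of basement membranes, type VI chains form beaded filaments, and fibril-associated chains sit on the surface of fibres. In the brain most collagen is laid down by meningeal and perivascular fibroblasts and by the cells of blood vessels and choroid plexus, while some neurons make particular chains such as type XIX and the membrane-spanning type XXV. Capicua, the protein that Cic encodes, represses transcription by binding short DNA sites.

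The windows upstream of 3 of these genes are shown because Col9a2 was the only member called between genotypes and because Col8a1 and Col8a2, the chains of type VIII collagen, were both far higher in the same 2 libraries than in the rest. They come from RefSeq on GRCm38.p6 and stop before the first base that any GENCODE M21 transcript covers. Each runs 5′ to 3′ on the strand of its gene, and no letter is in capitals because neither motif searched occurs in them. The Col9a2 stretch is chr4:121039316-121039384 on the plus strand, that of Col8a1 chr16:57754738-57754987 on the minus strand and that of Col8a2 chr4:126286544-126286792 on the plus strand.
Col9a2: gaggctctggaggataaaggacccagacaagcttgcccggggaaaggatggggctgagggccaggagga
Col8a1: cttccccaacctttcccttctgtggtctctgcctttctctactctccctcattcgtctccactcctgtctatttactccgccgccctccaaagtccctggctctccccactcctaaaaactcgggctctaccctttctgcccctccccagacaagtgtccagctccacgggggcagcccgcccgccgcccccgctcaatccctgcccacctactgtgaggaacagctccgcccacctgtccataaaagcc
Col8a2: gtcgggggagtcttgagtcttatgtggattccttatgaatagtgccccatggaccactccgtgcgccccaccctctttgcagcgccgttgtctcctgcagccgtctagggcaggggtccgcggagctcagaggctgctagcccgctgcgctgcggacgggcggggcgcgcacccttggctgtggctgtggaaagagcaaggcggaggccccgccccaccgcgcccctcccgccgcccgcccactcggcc
RefSeq windows of 300 bases (250 before and 50 after a start) were matched to 35 of the 44 members by symbol, with 38 windows in all. The Capicua octamers searched, TGAATGAA and TGAATGGA on either strand, occurred in 0 of these 38 windows and in 2.47% of all 32851 such windows. The OTX site TAATCC, bound by a transcription factor family with a choroid plexus member, occurred in 0 of the 38 and in 7.06% of all windows. These counts concern only the spellings searched in those windows and nothing further away. In 38 windows, a count of 0 cannot be told apart from a share as low as 2.47%.

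Gene counts summed to 102653765 to 121285349 per library, so that 3 counts correspond to 0.0247 to 0.0292 CPM, the unit used here for levels (counts-per-million, scaled by TMM to correct for library composition). Cic itself was at 144 to 147 CPM in the CicKO libraries and 216 to 257 CPM in the Wildtype libraries, without overlap (-0.66 on the log2 scale, SE 0.0622, edgeR adjusted p = 0.00256). The cerebellar markers Calb1, Car8, Pcp2, Gabra6 and Cbln3 were abundant, at 104 CPM or more in all 7 libraries. The libraries CicKO 3 and Wildtype 3 stood apart in choroid plexus transcripts. The 16 markers of that epithelium summed to 8775 and 6322 CPM there and to between 51.1 and 151 CPM in the other 5. The 16 meningeal fibroblast markers, none of them a collagen, summed to 574 CPM in Wildtype 1, 540 in CicKO 3, 477 in Wildtype 3, 331, 245 and 324 in CicKO 1, 2 and 4, and 209 in Wildtype 2. A single gene, Igf2, made up 252 CPM of that sum in CicKO 3, 204 in Wildtype 3 and 66.2 to 169 in the other 5. Exons of Igf2 share 3596 bases with Gm49394 on the same strand (GENCODE M21), so its level is uncertain. Mean log2 CPM over a list was compared between genotypes by an exact permutation test (two-sided, 35 possible splits, smallest possible p 0.0286). It gave p = 0.714 for the meningeal and 0.686 for the choroid plexus list (exact permutation, adjusted p = 0.914 for each over 5 marker lists). In bulk tissue, fewer cells of a type and less RNA per cell cannot be told apart.

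All 44 collagens passed the filter on low counts, and 34 had a mean of at least 1 CPM. Together they made up 586 to 755 CPM per library. Levels were compared between genes per kilobase of exon (union of GENCODE M21 exons). On that scale the highest was Col18a1, whose product is the precursor of endostatin, at 23.9 CPM per kb as a mean over libraries. Col9a3, a chain of type IX, followed at 14.6 CPM per kb, then the fibrillar Col5a1 at 7.02, the fibril-associated Col19a1 at 6.13, Col9a2 at 4.90 and the type VI chain Col6a1 at 4.09. The chains of type I collagen, the main fibre of skin and bone, were lower, at 2.24 CPM per kb for Col1a2 and 1.13 for Col1a1. The type III chain Col3a1 was at 0.411. At the other end Col10a1, of growth plate cartilage, had 0.0894 CPM as a mean, from 0.0197 to 0.168 CPM over the 7 libraries, and its lowest library was under the floor of 3 counts. Col6a5 was listed at 0 in CicKO 4 and reached 1.17 CPM in CicKO 1.

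**Figure D1:**
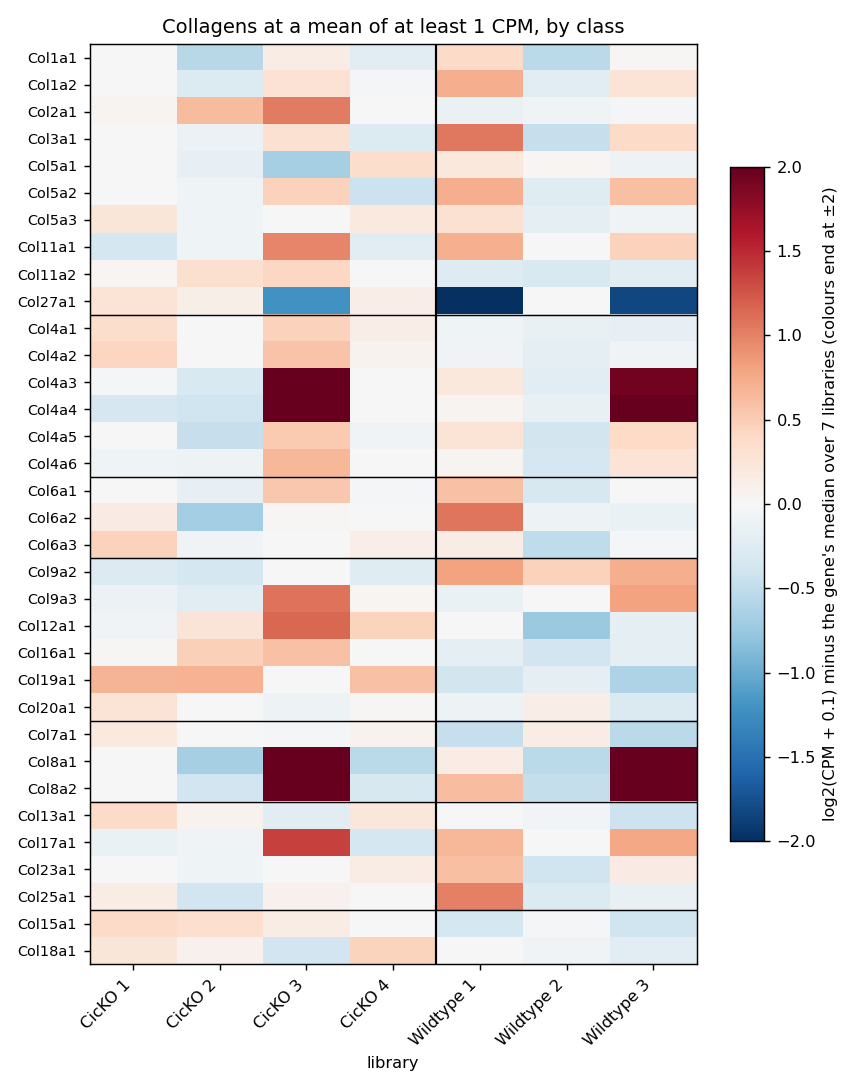
Level of each of the 34 collagens with a mean of at least 1 CPM (rows, ordered by structural class) in each library (columns), as log2(CPM + 0.1) minus that gene's median over the 7 libraries; red is above and blue below the median, and colours end at ±2. Col8a1, Col8a2, Col4a3 and Col4a4 are red in CicKO 3 and Wildtype 3 of both genotypes, Col1a2, Col3a1 and Col6a2 are reddest in Wildtype 1, and Col9a2 is above its median in the 3 Wildtype libraries.

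Between genotypes, 1 collagen was lower in CicKO and 0 were higher at an adjusted p below 0.05 (edgeR quasi-likelihood test, Benjamini-Hochberg over all 16905 genes tested), where 0.828% of all genes were called lower and 1.25% higher. Among the 44 collagens 7 were higher and 1 lower at an unadjusted p below 0.05, where the shares of all genes were 8.06% and 8.16%. DESeq2 called 5 higher and 1 lower of the 40 members to which it gave an adjusted p, where it called 4.4% and 3.28% of all such genes. Other fits called 1 member lower each and differed in the members called higher. With RLE scaling, limma-voom, no filter on low counts or the meningeal fibroblast list score, 0 were higher, as in the main fit. These fits called 0.956% to 1.48% of all genes higher and 0.705% to 1.04% lower. With library size as the only scaling 1 was higher (1.34% of all genes, with 0.887% lower), with a filter of 1 CPM 1 (1.67% and 1.08%), with the replicate block 3 (1.83% and 1.21%), without both libraries numbered 3 1 (1.52% and 0.864%) and after adjusting for the choroid plexus list score 2 (2.24% and 1.85%). A fit that added the percentage of reads outside annotated genes called 0 members, where it called 0.272% of all genes higher and 0.071% lower. Log2 fold changes were positive for 23 members and negative for 21, with a median of 0.04, against a median of -0.0044 over all genes tested. Groups did not overlap for 7 members that were higher in every CicKO library (7.06% of all genes) and for 1 that was lower (8.36%).

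**Figure D2:**
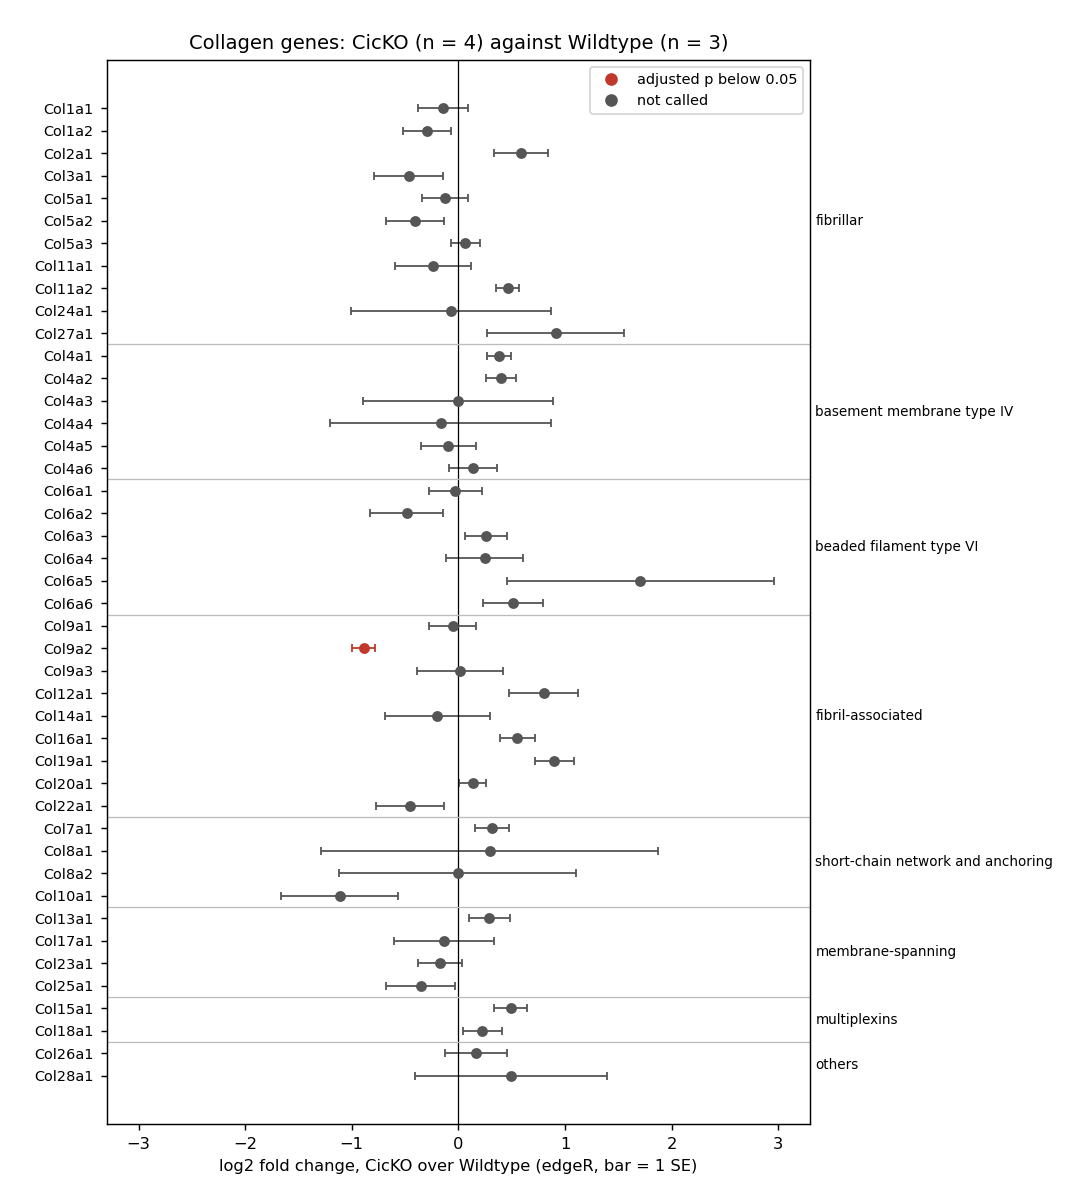
Log2 fold change of CicKO over Wildtype for each of the 44 collagens (points; bars are 1 SE from edgeR), grouped by structural class, with the called gene in red. Only Col9a2, at -0.89, is called; the widest bars belong to genes that differ most between libraries of 1 genotype, such as Col8a1 (SE 1.58).

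Col9a2, which encodes the alpha 2 chain of type IX collagen, was the member that fell. Type IX molecules decorate type II fibres in cartilage and are built from an alpha 1, an alpha 2 and an alpha 3 chain. Col9a2 lies on chromosome 4 at 121039385 to 121055322 of GRCm38 (GENCODE M21). Its level was 10.6, 10.1, 12.9 and 10.9 CPM in CicKO 1 to 4 and 22.5, 17.8 and 21.4 CPM in Wildtype 1 to 3. Every CicKO library lay below every Wildtype library. The means were 11.1 ± 1.21 CPM (SD, n = 4) and 20.6 ± 2.45 CPM (SD, n = 3), so that the log2 fold change was -0.89 with an SE of 0.109 (edgeR adjusted p = 0.00736). Leaving out both libraries numbered 3 gave -0.94 (SE 0.111, adjusted p = 0.0097). The call held in 17 of 18 alternatives, narrowly without Wildtype 1 (-0.81, edgeR adjusted p = 0.0475). It was lost in the alternative that added the percentage of reads outside annotated genes (-0.74, adjusted p = 0.139). That percentage was 18.2% to 19.0% in CicKO and 16%, 18.6% and 16.5% in Wildtype 1 to 3, and its part in the result was not tested beyond that fit.

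The partner chains of Col9a2 were not called. Col9a1 was at 0.916, 0.803, 0.589 and 0.979 CPM in CicKO and 0.726, 0.944 and 0.885 CPM in Wildtype, with overlapping groups (log2 fold change -0.05, SE 0.221, adjusted p = 0.935). Col9a3 was at 42.4, 39.6, 97.3 and 46.9 CPM in CicKO and 41.7, 45.9 and 80.4 CPM in Wildtype, and the libraries numbered 3 were the highest of each genotype. Its log2 fold change was 0.02 (SE 0.407), or -0.03 (SE 0.0848, adjusted p = 0.917) without those 2 libraries, an estimate with a far smaller error. Exons of Col9a3 share 234 bases with Tcfl5 on the opposite strand, and with the strand setting unknown reads there cannot be assigned. The difference in response between the 3 chains was not tested.

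**Figure D3:**
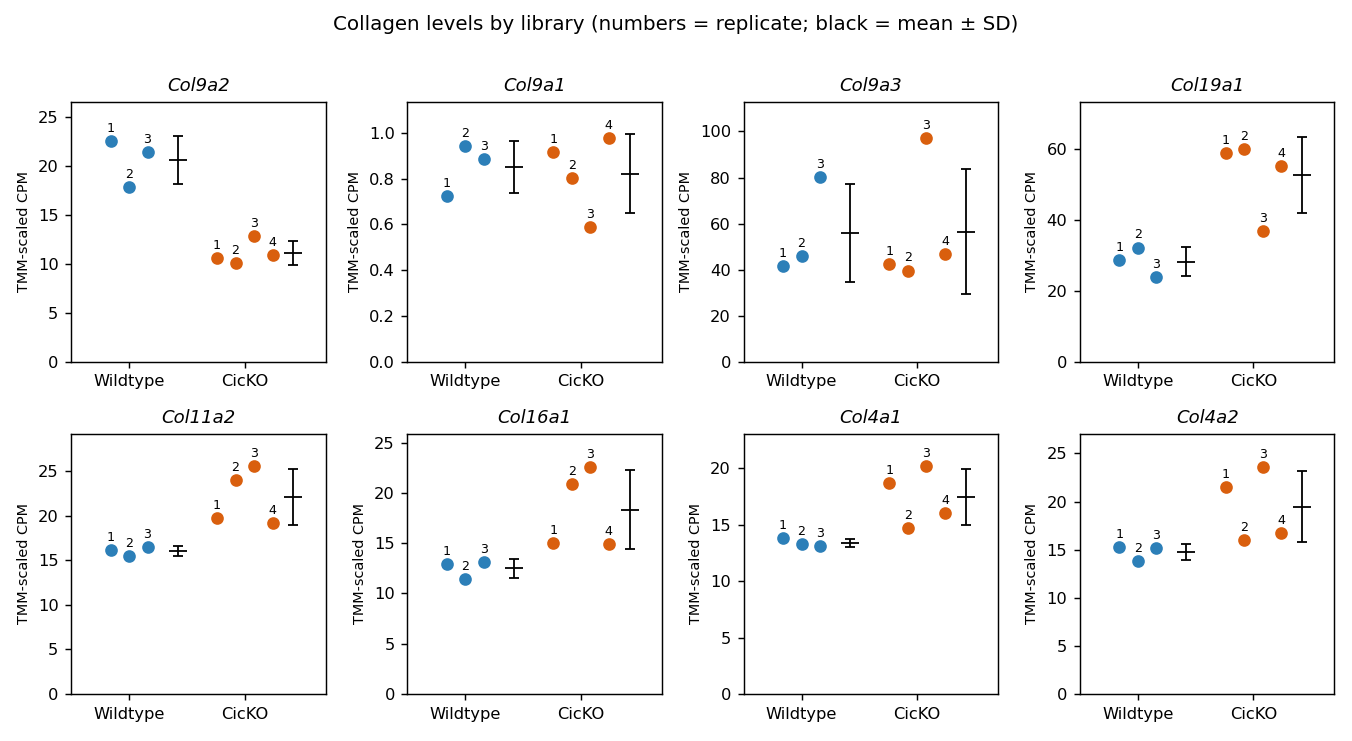
TMM-scaled CPM of 8 collagens in each library (points, labelled with the replicate number; blue Wildtype, orange CicKO; black bars are mean ± SD). The CicKO points of Col9a2 (10.1 to 12.9) lie below the Wildtype points (17.8 to 22.5), the groups of Col19a1, Col11a2, Col16a1, Col4a1 and Col4a2 do not overlap in the other direction, and Col9a3 is set apart by replicate 3 in both genotypes.

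Among the other fibril-associated chains, Col19a1 came closest to a call in the other direction. Col19a1 was at 58.9, 59.9, 36.9 and 55.1 CPM in CicKO and 28.7, 32.2 and 23.9 CPM in Wildtype. All 4 CicKO libraries were above all 3 Wildtype libraries, and within each genotype the library numbered 3 was the lowest. The means were 52.7 ± 10.7 and 28.3 ± 4.19 CPM (log2 fold change 0.90, SE 0.183, adjusted p = 0.0598). Without both libraries numbered 3 it passed (0.93, SE 0.0734, adjusted p = 0.00228), as it did with the replicate number as a block (adjusted p = 0.00222), without CicKO 3 alone (0.00203), after adjusting for the choroid plexus score (0.000864), in DESeq2 (4.84e-06), with library size only (0.046) and with a filter of 1 CPM (0.0433). Its adjusted p ranged up to 0.423, the value when the percentage of reads outside genes was added. Col19a1 and Col9a1 are neighbours on chromosome 1, at 24261890 to 24587472 and 24177610 to 24252684.

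Col16a1, a chain found in many connective tissues, was at 15.1, 20.9, 22.5 and 14.9 CPM in CicKO and 12.9, 11.4 and 13.1 CPM in Wildtype, without overlap (log2 fold change 0.55, SE 0.161, adjusted p = 0.143, or 0.0108 in DESeq2). Col12a1 was at 17.7, 22.3, 41.6 and 25.5 CPM against 18.6, 11.1 and 16.3 CPM, with overlap (0.80, SE 0.324, adjusted p = 0.291). Its highest value was in CicKO 3, and without both libraries numbered 3 its log2 fold change was 0.55 (SE 0.253). The remaining fibril-associated chains, Col14a1, Col20a1 and Col22a1, had log2 fold changes of -0.20, 0.13 and -0.45 (adjusted p = 0.887, 0.649 and 0.531).

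Of the 11 fibrillar chains 0 were called, and log2 fold changes were positive for 4 and negative for 7. Col11a2, a type XI chain that sets the diameter of fibres, was at 19.7, 24.0, 25.5 and 19.2 CPM in CicKO and 16.1, 15.5 and 16.5 CPM in Wildtype. The 3 Wildtype values lay close together and below every CicKO value (log2 fold change 0.46, SE 0.107, adjusted p = 0.0722). Col11a2 passed with the replicate block (adjusted p = 0.02), after adjusting for the choroid plexus score (0.0264) and in DESeq2 (0.00183), but not without both libraries numbered 3 (0.125). Col2a1, the main fibre chain of cartilage, was at 5.60, 8.47, 11.2 and 5.41 CPM against 4.90, 5.18 and 5.28 CPM, again without overlap (0.59, SE 0.254, adjusted p = 0.309). Its partner in type XI fibres, Col11a1, overlapped between groups at 2.66 to 6.85 and 3.43 to 5.70 CPM (-0.24, SE 0.353, adjusted p = 0.789).

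The most abundant fibrillar chain per library, Col5a1, was at 60.3, 53.8, 38.2 and 77.2 CPM in CicKO and 69.5, 62.3 and 56.0 CPM in Wildtype. The groups overlapped (log2 fold change -0.13, SE 0.218, adjusted p = 0.824), and the sign turned without CicKO 3 (0.03). Col27a1, a fibrillar chain of cartilage, split the libraries in a way that genotype does not describe: 55.4, 50.2, 19.8 and 50.7 CPM in CicKO and 11.2, 46.0 and 13.0 CPM in Wildtype. CicKO 3, Wildtype 1 and Wildtype 3 were low and the other 4 were high. Its log2 fold change was 0.91 with an SE of 0.646 (adjusted p = 0.55), and 0.21 with the percentage of reads outside genes as a covariate. Col24a1 stayed below 2 CPM in every library (-0.07, SE 0.936).

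Of the 6 type IV chains 0 were called. Col4a1 and Col4a2 form the common basement membrane network and are divergent neighbours on chromosome 8 whose first exons overlap by 22 bases. Col4a1 was at 18.7, 14.7, 20.2 and 16.1 CPM in CicKO and 13.8, 13.3 and 13.1 CPM in Wildtype. Col4a2 was at 21.5, 16, 23.6 and 16.8 CPM and 15.2, 13.8 and 15.2 CPM. Both lacked overlap between groups, and in CicKO both were highest in libraries 3 and 1. Their log2 fold changes were 0.38 (SE 0.110, adjusted p = 0.136) and 0.40 (SE 0.140, adjusted p = 0.213). Col4a1 passed in DESeq2 (adjusted p = 0.0211) and Col4a2 with the replicate block (0.0434). Neither passed without both libraries numbered 3, where the values were 0.29 (adjusted p = 0.279) and 0.31 (adjusted p = 0.329). Cells of brain vessels are a main source of these chains. The 12 endothelial markers all had positive log2 fold changes from 0.09 to 0.37 with 0 called. Of the 12 pericyte and smooth muscle markers 4 were positive and 8 negative, with a median of -0.09 and 0 called. Mean log2 CPM over the endothelial list gave p = 0.171 between genotypes (exact permutation, adjusted p = 0.857 over all marker lists). The pericyte and smooth muscle list gave p = 0.914 (exact permutation, adjusted p = 0.914). The part of vessel cells in the result was not tested. The remaining chains Col4a3, Col4a4, Col4a5 and Col4a6 had log2 fold changes between -0.17 and 0.14.

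The 6 type VI chains gave 0 calls. Col6a1 was at 16.5, 14.7, 23.9 and 15.9 CPM in CicKO and 24.6, 13.2 and 16.5 CPM in Wildtype, so that the ranges overlapped almost entirely (log2 fold change -0.03, SE 0.246). Col6a2 was at 6.48, 3.56, 5.83 and 5.75 CPM against 12.1, 5.33 and 5.22 CPM. Only Wildtype 1 stood above the rest, and the log2 fold change of -0.48 (SE 0.340, adjusted p = 0.535) became 0.04 without it. Col6a3 was at 1.82 to 3.63 CPM over all libraries (0.26, SE 0.200). Col6a4, Col6a5 and Col6a6 each had a mean below 1 CPM, and the log2 fold change of 1.71 for Col6a5 carried an SE of 1.25 (adjusted p = 0.557).

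Col7a1, the chain of the fibrils that anchor skin epithelium, was at 25.4, 22.2, 21.6 and 23.3 CPM in CicKO and 16, 24.5 and 15.2 CPM in Wildtype. Wildtype 2 lay among the CicKO values and the other Wildtype libraries below them. The log2 fold change was 0.32 (SE 0.162, adjusted p = 0.392), 0.57 without Wildtype 2 (adjusted p = 0.0218) and -0.01 with the percentage of reads outside genes as a covariate. That percentage was 18.6% in Wildtype 2, close to CicKO, and lower in the other Wildtype libraries. Its part in the result beyond this fit was not tested.

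Col15a1 and Col18a1, the multiplexins of basement membranes, were both positive in log2 fold change and not called. Col15a1 was at 3.34, 3.20, 2.82 and 2.53 CPM in CicKO and 1.97, 2.48 and 1.90 CPM in Wildtype, without overlap (log2 fold change 0.49, SE 0.156, adjusted p = 0.172, or 0.0455 in DESeq2). Col18a1 was at 194, 173, 125 and 223 CPM against 164, 156 and 139 CPM, with overlap (0.23, SE 0.181, adjusted p = 0.592). The membrane-spanning chains gave 0 calls of 4. Col23a1 was at 10.9 to 12.9 CPM in CicKO and 17.8, 8.80 and 13.1 CPM in Wildtype (-0.17, SE 0.206). Col25a1, a neuronal chain found in amyloid plaques, was at 2.52 to 3.69 CPM in CicKO and 6.79, 2.73 and 2.99 CPM in Wildtype, where only Wildtype 1 was high (-0.35, SE 0.320, adjusted p = 0.636). Col13a1, a chain of the neuromuscular junction, had 0.29 (SE 0.190), and Col26a1 and Col28a1 had 0.16 and 0.49 (adjusted p = 0.824 and 0.836).

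The libraries numbered 3 were compared with the other 5 because they share a number and stood apart in choroid plexus transcripts, so these values are a description without a test. In 11 of 44 collagens both libraries lay above all 5 others, and in 2 both lay below. The corresponding shares of all genes tested were 10.6% and 9.22%. Against the other libraries of their own genotype only, 15 were higher and 6 lower in both, where the shares of all genes were 15.9% and 16.8%. CicKO 3 was the highest of all 7 libraries for 19 of 44 collagens and Wildtype 3 for 0, beside 18.2% and 14.4% of all genes.

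Type VIII collagen is a short-chain network protein of the cornea and vessels, and its chain Col8a1 had the largest difference of the 44. Col8a1 was at 27.2 CPM in CicKO 3 and 15.9 CPM in Wildtype 3, and between 1.18 and 2.15 CPM in the other 5. The mean of these 2 libraries was 13.7-fold that of the rest. Col8a2 was at 29.3 and 20.7 CPM against 3.06 to 6.62 CPM, or 6.07-fold. Each of these genes was thus high in 1 library of either genotype, and the genotype fit gave log2 fold changes of 0.30 (SE 1.58) and -0.0049 (SE 1.11). They were -0.23 (SE 0.296) and -0.41 (SE 0.319) without these libraries.

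The type IV chains of the kidney glomerulus were also high there. Col4a4 was at 4.64 and 4.06 CPM against 0.558 to 0.800 CPM, and its divergent neighbour Col4a3 at 5.06 and 3.86 CPM against 0.744 to 1.11 CPM. These values were 6.40-fold and 4.93-fold those of the other 5 libraries as means. Exons of Col4a3 share 563 bases with C430014B12Rik on the opposite strand, so its level is uncertain. Col4a5, which joins them in one molecule, was at 20.9 and 19.1 CPM against 10.6 to 17.6 CPM, and Col4a6, beside Col4a5 on chromosome X, at 9.16 and 6.99 CPM against 4.55 to 5.97 CPM. Col4a1 and Col4a2 did not lie above the rest in both libraries: Wildtype 3 was the lowest of all 7 for Col4a1 (13.1 CPM) and lay among the others for Col4a2 (15.2 CPM).

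Col9a3 was 2.05-fold higher as a mean in the libraries numbered 3 (88.8 against 43.3 CPM), and Col17a1, an epithelial chain of hemidesmosomes, 2.07-fold (16.8 against 8.09 CPM). Col17a1 was at 20.2 CPM in CicKO 3 and 13.3 in Wildtype 3, with Wildtype 1 next at 12.3 CPM. Of the chains with a mean below 1 CPM, Col28a1, Col24a1 and Col14a1 were 4.51-fold, 3.38-fold and 2.53-fold higher. Col18a1 (125 and 139 CPM against 156 to 223) and Col13a1 (1.76 and 1.53 CPM against 2.00 to 2.74) were lower in both.

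**Figure D4:**
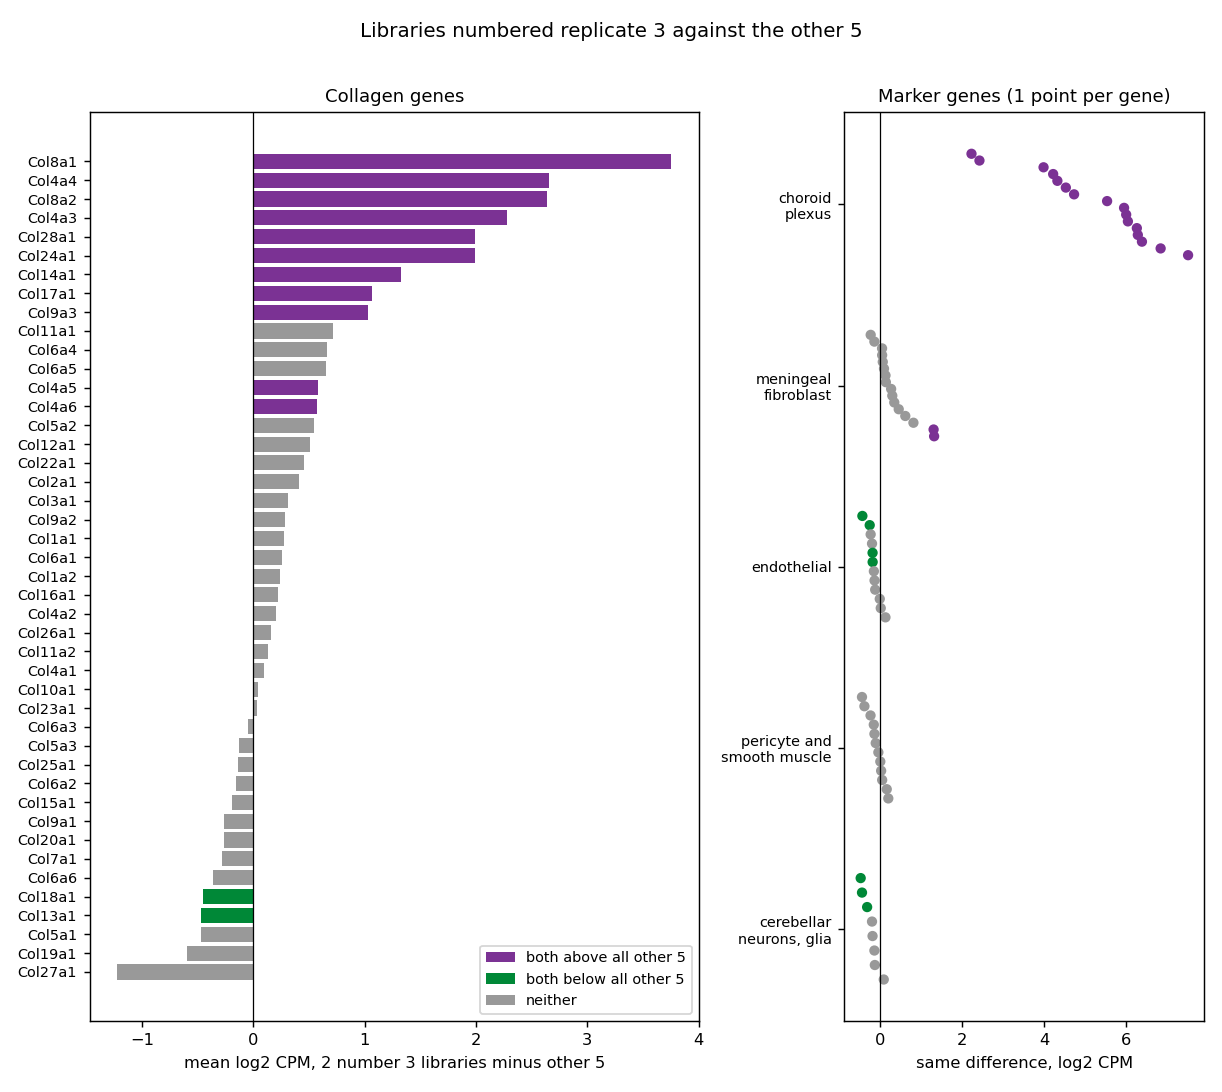
Left, mean log2 CPM in CicKO 3 and Wildtype 3 minus the mean in the other 5 libraries for each collagen, with purple where both libraries lie above all others, green where both lie below and grey otherwise. Right, the same difference for each gene of 5 marker lists (1 point per gene, same colours): all 16 choroid plexus markers are purple, 2 of 16 meningeal fibroblast markers are, and 0 of the endothelial and of the pericyte and smooth muscle markers are. Of all genes tested, 10.6% lay above and 9.22% below in both libraries.

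Markers of the tissues that a cerebellar dissection can include were read the same way, beside 10.6% of all genes above and 9.22% below in both. All 16 choroid plexus markers were above the other 5 libraries in both, with Ttr, the transthyretin gene, at 8006 and 5814 CPM against 13.9 to 112 CPM, and Kl at 165 and 110 CPM against 1.34 to 3.22 CPM. Of the 16 meningeal fibroblast markers 2 were, Igf2 (252 and 204 CPM against 66.2 to 169) and Slc13a4 (55.0 and 40.6 against 10.0 to 35.3), and the median difference of that list was 0.20 on the log2 scale against 5.74 for choroid plexus. Of 12 endothelial markers 0 were above and 4 below, and of 12 pericyte and smooth muscle markers 0 were above or below. The 8 cerebellar neuron and Bergmann glia markers included 3 that were below in both, Calb1, Car8 and Pcp2. Which cells the collagen reads came from was not tested.

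Other members had their extremes in Wildtype 1 and Wildtype 2. Of the 44 members 12 were highest in Wildtype 1 and 12 lowest in Wildtype 2, where the shares of all genes were 17.1% and 13.9%. The same extremes held for 12 and 13 of the 16 meningeal fibroblast markers, such as Dcn, which encodes decorin, at 59.6 CPM in Wildtype 1 and 25.7 CPM in Wildtype 2. Col1a1 was at 7.80, 5.25, 8.61 and 6.66 CPM in CicKO and 10.2, 5.33 and 7.92 CPM in Wildtype. Col1a2 was at 25.1, 20.8, 30.7 and 24.8 CPM and 41.4, 21.5 and 30.4 CPM. Col3a1 was at 3.48, 3.20, 4.31 and 2.87 CPM and 7.29, 2.5 and 4.57 CPM, and its neighbour on chromosome 1, Col5a2, at 3.81, 3.59, 5.27 and 2.80 CPM and 6.36, 3.22 and 5.82 CPM. For all 4 of these chains Wildtype 1 was highest, the libraries numbered 3 came next, and Wildtype 2 and CicKO 2 or 4 were lowest. Their log2 fold changes between genotypes were -0.14, -0.30, -0.47 and -0.41, with SEs of 0.238, 0.223, 0.324 and 0.274 and adjusted p from 0.516 to 0.812. Without Wildtype 1 they were 0.10, -0.03, -0.03 and -0.22. Wildtype 1 and Wildtype 2 belong to the same genotype and were farther apart than the group means for each.

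**Figure D5:**
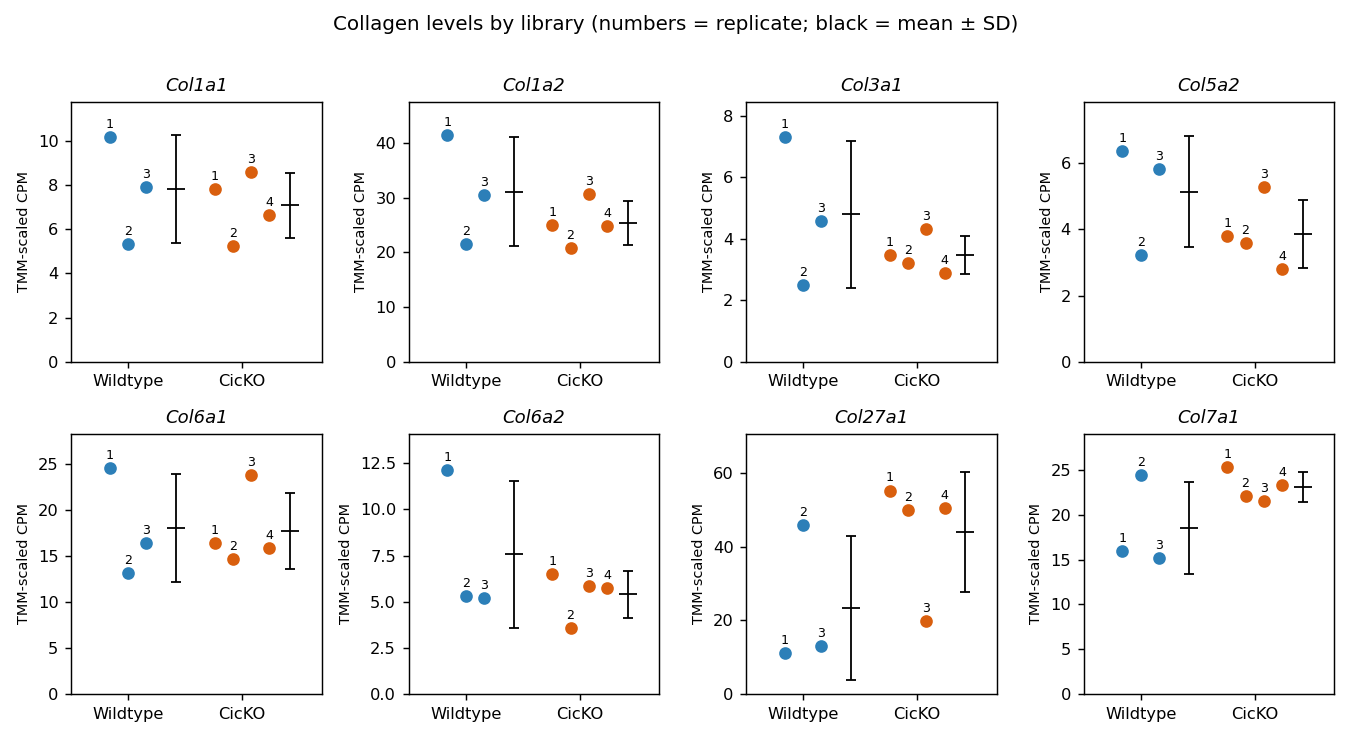
TMM-scaled CPM of 8 collagens in each library (points, labelled with the replicate number; blue Wildtype, orange CicKO; black bars are mean ± SD). Wildtype 1 is the highest point for Col1a1, Col1a2, Col3a1, Col5a2, Col6a1 and Col6a2, whereas Col27a1 is low in Wildtype 1, Wildtype 3 and CicKO 3, and Col7a1 in Wildtype 1 and Wildtype 3.

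Genes that make, process, bind and degrade collagen were read from lists of 70 in all. Of these 68 passed the filter, 1 was called higher and 1 lower, beside 1.25% and 0.828% of all genes, and their median log2 fold change was -0.01. Loxl2, a lysyl oxidase that crosslinks collagen, type IV included, was the gene that rose: 6.99, 6.50, 7.57 and 5.98 CPM in CicKO against 2.96, 1.72 and 3.11 CPM in Wildtype. The groups did not overlap (log2 fold change 1.38, SE 0.208, adjusted p = 0.0183). The Loxl2 call was lost without CicKO 1 (adjusted p = 0.0617) or Wildtype 1 (0.0683). Sparc, a collagen-binding glycoprotein abundant in Bergmann glia and vessels, fell from 1126, 890 and 1112 CPM to 626, 622, 760 and 537 CPM (log2 fold change -0.71, SE 0.127, adjusted p = 0.033). Sparc lost its call when CicKO 1, 2 or 4 or Wildtype 1 or 3 was left out, with adjusted p from 0.0855 without CicKO 4 to 0.15 without Wildtype 1, and when the percentage of reads outside genes was added (0.375). Gdf10, a Bergmann glia marker, also fell, from 215 to 242 CPM in Wildtype to 151 to 163 CPM in CicKO (-0.59, adjusted p = 0.00256), and the part of Bergmann glia in the Sparc result was not tested.

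In the list of modifying and folding enzymes 0 of 17 were called. Colgalt2, a collagen galactosyltransferase, was at 5.65 to 6.49 CPM in CicKO and 4.48 to 4.94 CPM in Wildtype (log2 fold change 0.41, SE 0.0963, adjusted p = 0.0768), and its relative Colgalt1, whose exons share 495 bases with Unc13a on the opposite strand, had 0.13 (adjusted p = 0.256). Plod2, a lysyl hydroxylase named here after its values were seen, was at 10.3, 10.3, 21.6 and 9.07 CPM in CicKO and 17.9, 17.2 and 23.6 CPM in Wildtype, with the libraries numbered 3 highest in each genotype. Its log2 fold change of -0.61 (SE 0.319, adjusted p = 0.41) passed without those 2 libraries (-0.83, SE 0.0915, adjusted p = 0.00774). Of the 14 secretion, processing and crosslinking genes only Loxl2 was called. Of 11 receptors tested 0 were called: Itga1, an integrin chain that binds type IV collagen, had 0.46 (SE 0.127, adjusted p = 0.123) and Itga11 -0.52 (SE 0.275, adjusted p = 0.405). Of 6 collagen-degrading proteases tested 0 were called, with Mmp13 at 0.158 to 0.206 CPM against 0.0653 to 0.0877 CPM (adjusted p = 0.1) and Mmp14 at -0.22 (SE 0.0597, adjusted p = 0.115). Sparc was the only matrix partner of 20 called, and 3 of that list (Dcn, Lum and Fmod) are also meningeal markers.

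In the libraries numbered 3, 18 of the 68 tested pathway genes were above the other 5 in both and 2 were below, beside the 10.6% and 9.22% of all genes. Pcolce, which speeds the trimming of fibrillar procollagen, was at 28.3 and 18.7 CPM against 5.61 to 14.6 CPM. Lox, the founding lysyl oxidase, was at 4.11 and 3.01 CPM against 0.965 to 2.54 CPM. Nid2, a basement membrane linker, was at 10.4 and 3.67 CPM against 1.42 to 2.94 CPM.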

How the data were processed

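Raw counts per gene symbol, 1 column per library, are the values the authors deposited; they were not normalized. The aligner STAR 2.5.3a, HTSeq, DESeq2 and the build mm10 are named, per the submitters' processing notes. Annotation, strand setting and read filters were not given in the sources used here. Per the labels' protocols, amplified double-stranded cDNA was made from total RNA with poly(A) and random priming. The HTSeq summary rows (31.1% to 33.0% of entries) stayed out of library sizes and tests. Intervals from counts would cover counting error only, since amplified reads lack molecular identifiers.

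Genes were kept by filterByExpr (16905) in R 4.3.3, scaled by TMM and tested with the robust quasi-likelihood F test of edgeR 4.0.16, genotype only, with Benjamini-Hochberg adjustment over all genes and calls at 0.05. The SE was taken as the log2 fold change over the root of the F statistic. The fit was also run on simulated counts with the same variance setting for every gene and no outlying library, unlike these data. DESeq2 1.42.0 and limma-voom (limma 3.58.1) were alternatives. Log2 CPM used a prior count of 2. Every within-group pair showed 18.5 to 157 times the variance expected from sampling, so each library counted as 1 replicate. The members and lists were chosen with earlier results of these data known. Values per library are given for members called in any fit, the 2 highest per class, the 6 largest uncalled changes (both among members that average 1 CPM or more), and members that set the libraries numbered 3 or Wildtype 1 apart (the last 2 kinds picked after their values were seen). For some of these, such as Col17a1, Col23a1 and Col8a2, part of the libraries are left out or given as a range. From each pathway list called genes or else the 2 smallest p-values were named.

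Deviations of same-numbered libraries correlated across genes at 0.145, 0.288 and 0.713, each over the limit of 0.1 set for pairing. CicKO 1 and 4 with Wildtype 2 (0.319 and 0.297) and CicKO 4 with Wildtype 1 (0.187) exceeded the same-numbered pairs of those Wildtype libraries. Pairing by number is thus not established, and the main fit used genotype only. The block drops CicKO 4, which has no partner, from the contrast. Blocked values are given where they change a call.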

Additional observations from a re-analysis of the deposited data

Results flagged for a closer look

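In 10 of 37 genes examined, 1 of the 4 CicKO libraries lay farther from its nearest neighbour (as a share of the group's range) than Dixon's 95% critical value for 4 samples; chance gives this for about 1 in 20 groups. The library was CicKO 3 each time. The 37 genes included every collagen for which both libraries numbered 3 lay outside the others. The number flagged and the library concerned therefore cannot be set against the rate of 1 in 20. The gap was 0.971 of the range for Col8a1, 0.961 for Col8a2, 0.954 for Col4a3, 0.948 for Col4a4, 0.908 for Col17a1, 0.904 for Col28a1, 0.899 for Col4a6, 0.873 for Col9a3 and 0.846 for Col14a1, all with CicKO 3 highest, and 0.854 for Col27a1, with CicKO 3 lowest. For the first 9 of these Wildtype 3 was also above the libraries numbered 1, 2 and 4. The 3 Wildtype libraries were not examined in this way.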

How the results depend on the processing

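Col9a2 kept its direction in all 18 alternatives (log2 fold change -0.98 to -0.74) and its call in 17, narrowly without Wildtype 1 (edgeR adjusted p = 0.0475). Collagens called higher, 0 as reported, numbered 5 in DESeq2, 3 with the replicate block, 2 when the choroid plexus score was added, 1 with library size only, with a filter of 1 CPM in 3 libraries or with both libraries numbered 3 left out, and 0 to 1 with a single library left out. They stayed at 0 with RLE scaling, limma-voom, no filter on low counts, the meningeal score or the percentage of reads outside genes. Collagens called lower, 1 as reported, numbered 0 when the percentage of reads outside genes was added, an alternative chosen after seeing the data, and 1 with any single library left out. Pathway genes called higher, 1 as reported, numbered 3 in DESeq2 (4.4% of all genes) and 2 with the choroid plexus score (2.24%). Those called lower, also 1 as reported, numbered 3 in DESeq2 (3.28% of all genes) and 2 with the choroid plexus score (1.85%). They numbered 2 with both libraries numbered 3 left out (0.864%) and 0 with the percentage of reads outside genes (0.071%). Leaving out a single library gave 0 to 3 pathway genes in either direction. In those fits the share of all genes called higher ran from 0.386% without CicKO 1 to 2.94% without CicKO 3. The share called lower ran from 0.125% to 2.08% between the same fits. Against their own genotype, 6 collagens were lower in the libraries numbered 3, in place of 2. The replicate block changed the calls of Col19a1, Col11a2 and Col4a2, and of no other gene named. Only uncalled genes turned sign. Col8a2, at -0.0049, was at 0.0069 with library size only, 0.0008 with the filter of 1 CPM, 0.0027 with the replicate block, 0.041 with the meningeal score and 0.67 with the percentage of reads outside genes. Col9a3 was at -0.0189 in limma-voom, -0.0276 without both libraries numbered 3 and -0.0656 with that percentage. Col6a1 was at 0.0373 with the replicate block, 0.10 with the meningeal score and 0.36 with that percentage, which also turned Col7a1 (-0.0124), Col23a1 (0.40), Col17a1 (0.0658) and Col6a2 (0.065). With a single library left out, Col8a2 ranged from -1.47 to 1.06, Col9a3 from -0.38 to 0.37, Col17a1 from -0.71 to 0.052, Col6a1 from -0.21 to 0.26, Col6a2 from -0.69 to 0.0429, Col23a1 from -0.39 to 0.11 and Col5a1 from -0.30 to 0.026. The cause of these changes was not tested. Col10a1 had only 2 to 18 counts per library and Col6a5 0 to 119, which limits the precision of both.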
